A study of Homo sapiens with 9 samples.

Results

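ADM, PPFIA4 and 8 further genes that cells use to answer low oxygen were followed in the human colorectal adenocarcinoma line HCT-15 and in lines derived from it. The 10 genes are 10 of 36018 listed in the count data and 10 of the 17902 that passed a filter on low counts. ADM and PPFIA4 were chosen by a measured value, the size of their change between these lines, so their values are given as a description, with no test. CA9, CA12, NDRG1, ANKRD37, BNIP3, STC2, LOX and HILPDA were added by name as hypoxia effectors outside glycolysis, with earlier results of these data known. All 10 had higher levels in CoCl2-tolerant than in untreated cells. In low-glucose-tolerant cells NDRG1 and CA12 were higher as well, PPFIA4 was almost lost, CA9 had no reads, and the other 6 lay closer to their level in untreated cells. Of these, ADM, STC2 and LOX were slightly higher and HILPDA slightly lower, while ANKRD37 and BNIP3 overlapped the untreated libraries.

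The libraries fall into 3 groups of 3. The CoCl2-tolerant line was grown in rising amounts of cobalt chloride until it tolerated the salt, the low-glucose-tolerant line was adapted to low glucose in the same way, and the untreated control was HCT-15 with no agent. All 3 groups carry the genotype label WT, share RPMI medium with 10% fetal bovine serum, and were profiled by RNA sequencing of mRNA. Neither the concentrations nor the time of adaptation, nor whether the agent was present at harvest, is given in the labels. Each tolerance is represented by 1 derived line, and nothing in the labels states that replicate libraries were grown separately. What the p-values measure is therefore the scatter of 3 libraries per group, possibly only technical, and a property of the tolerance cannot be told apart from a property of that line. In bulk RNA, fewer cells expressing a gene and less RNA per cell cannot be told apart either.

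Hypoxia-inducible factors (HIF) are pairs of an alpha and a beta subunit that switch on genes when oxygen is scarce. In oxygen, prolyl hydroxylases of the EGLN family mark the alpha subunit, the VHL protein binds the mark, and the subunit is destroyed. Cobalt ions interfere with the hydroxylases, which need iron, and so mimic hypoxia in culture. The effectors studied here act downstream on vessels, acidity, mitochondria, matrix and lipid storage, and several of them serve as hypoxia markers in tumours.

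Depth was 25178615 to 32674687 counts per library. Levels are counts per 1000000 counts of the library (CPM), with the library total adjusted by the trimmed mean of M values (TMM), and 3 counts correspond to 0.0882 to 0.120 CPM. The low-glucose-tolerant libraries stood apart on the first principal component, which held 72.2% of the variance. Within that group, replicate 2 stood apart on the second, at -17.2 against -1.21 and 1.32. Mitochondrially encoded genes took 4.64 to 6.67% of counts in CoCl2-tolerant, 4.74 to 5.196% in low-glucose-tolerant and 8.08 to 9.80% in control libraries. Of 10 intestinal markers, CDX1, CDX2, VIL1, LGALS4, KRT20, MUC2 and CDH17 had means under 1 CPM in every group, and the summed list reached 47.5 to 50.6 CPM in CoCl2-tolerant, 77.5 to 96.6 CPM in low-glucose-tolerant and 88.6 to 95.3 CPM in control libraries. The 6 fibroblast markers summed to 242 to 273 CPM in CoCl2-tolerant, 25.4 to 35.4 CPM in low-glucose-tolerant and 1832 to 1879.5 CPM in control libraries. COL1A1 averaged 250.1 ± 17.2 CPM in CoCl2-tolerant, 21.5 ± 1.85 CPM in low-glucose-tolerant and 1855 ± 27.4 CPM in control libraries and was the highest of the 6 in every library. The means of COL3A1, DCN and LUM were under 1 CPM in every group. All 5 endothelial markers and 4 of 5 leukocyte markers had means under 1 CPM in every group. The part that mitochondrial reads and COL1A1 play in the values of the 10 genes was not tested.

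The 10 genes together took 0.264 to 0.271% of all counts in CoCl2-tolerant, 0.0942 to 0.105% in low-glucose-tolerant and 0.0647 to 0.0665% in control libraries. Their summed level was 2599 to 2670.1 CPM in CoCl2-tolerant, 1018 to 1082 CPM in low-glucose-tolerant and 638 to 647 CPM in control libraries. Most of these reads came from STC2, NDRG1, LOX and BNIP3. Divided by exon length, the mean level in CoCl2-tolerant libraries ran, in CPM per kilobase, from 137 for STC2 and 94.7 for LOX over 74.3 for BNIP3, 55.1 for NDRG1 and 34.7 for ADM to 1.99 for ANKRD37 and 1.46 for CA9. In low-glucose-tolerant libraries LOX led at 40.0 CPM per kilobase, with NDRG1 at 38.6 and STC2 at 38.6. In control libraries LOX at 30.8 and STC2 at 29.7 CPM per kilobase stood above BNIP3 at 19.5 and NDRG1 at 11.7. ADM, at 2.50 CPM per kilobase in control libraries, was then level with PPFIA4 at 2.48. No test was made between genes. In low-glucose-tolerant libraries the SD was 26.4 CPM on a mean of 222 CPM for LOX and 42.2 CPM on a mean of 379 CPM for NDRG1, so the order of LOX, NDRG1 and STC2 there lies within the spread.

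**Figure D1:**
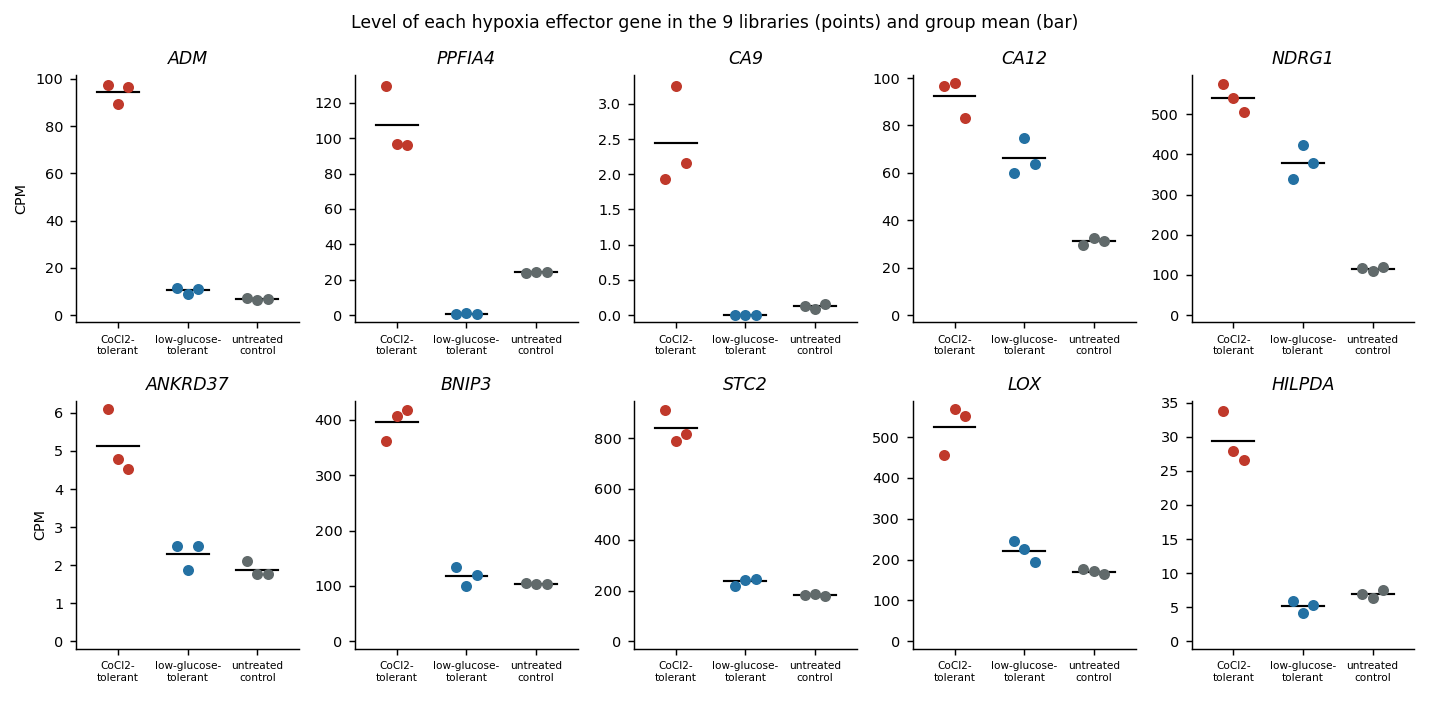
Level of each gene in every library, in CPM on a linear axis from 0 that differs between panels, with the CoCl2-tolerant, low-glucose-tolerant and untreated control libraries from left to right. Points are libraries and the short bar is the mean of the 3. All CoCl2-tolerant points lie above all control points, and PPFIA4 and CA9 are at or near the floor in the low-glucose-tolerant libraries.

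HIF pairs bind DNA at a short core made of A or G followed by CGTG. The 250 bases before the start of each gene were read from RefSeq's promoter table (build GRCh38.p14), for 8 of the 10 genes; NDRG1 and HILPDA were not read. For LOX, with 3 starts in the table, the first was used. The letters ACGTG and GCGTG were searched on both strands. Across 27305 promoters of the same length, 18.7% held ACGTG, 31.9% held GCGTG and 43.1% held at least 1 of them. All 8 promoters read held at least 1, and 5 of 8 held ACGTG. The following sequences are shown because they belong to the genes picked for their change (ADM, PPFIA4), to the gene that went to no reads in one line (CA9) and to 2 genes with 3 or more ACGTG matches (ANKRD37, LOX). They are given 5′ to 3′ on the gene's strand, and capitals mark ACGTG and GCGTG or, for a match on the other strand, their reverse complements. They cover chr11:10304823-10305072 on the plus strand for ADM, chr1:203026241-203026490 on the plus strand for PPFIA4, chr9:35673678-35673927 on the plus strand for CA9, chr4:185396591-185396840 on the plus strand for ANKRD37 and chr5:122078260-122078509 on the minus strand for LOX.
ADM: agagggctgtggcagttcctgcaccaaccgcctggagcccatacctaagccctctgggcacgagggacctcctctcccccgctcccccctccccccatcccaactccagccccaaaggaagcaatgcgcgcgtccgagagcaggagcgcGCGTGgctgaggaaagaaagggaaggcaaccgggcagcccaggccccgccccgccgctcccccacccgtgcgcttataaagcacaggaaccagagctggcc
PPFIA4: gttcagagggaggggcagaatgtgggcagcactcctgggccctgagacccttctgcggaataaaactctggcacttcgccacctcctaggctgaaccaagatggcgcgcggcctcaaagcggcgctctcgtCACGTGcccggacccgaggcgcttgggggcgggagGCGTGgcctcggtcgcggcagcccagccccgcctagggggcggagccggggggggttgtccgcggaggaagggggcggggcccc
CA9: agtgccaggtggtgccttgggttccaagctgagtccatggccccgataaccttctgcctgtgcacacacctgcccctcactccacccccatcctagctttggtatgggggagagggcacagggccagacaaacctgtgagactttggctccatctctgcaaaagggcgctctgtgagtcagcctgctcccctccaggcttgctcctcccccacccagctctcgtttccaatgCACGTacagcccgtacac
ANKRD37: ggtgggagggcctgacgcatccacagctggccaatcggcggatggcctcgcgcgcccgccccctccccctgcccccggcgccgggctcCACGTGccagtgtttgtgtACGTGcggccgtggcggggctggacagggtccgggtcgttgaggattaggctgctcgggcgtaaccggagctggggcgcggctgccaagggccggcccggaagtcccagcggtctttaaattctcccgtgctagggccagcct
LOX: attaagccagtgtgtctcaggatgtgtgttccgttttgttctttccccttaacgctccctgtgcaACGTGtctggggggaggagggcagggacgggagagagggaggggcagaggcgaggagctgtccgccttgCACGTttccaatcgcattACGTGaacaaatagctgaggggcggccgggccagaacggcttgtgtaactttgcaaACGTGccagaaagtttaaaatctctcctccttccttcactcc

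ADM held a single GCGTG, at -101 to -97 from its RefSeq start. PPFIA4 held a palindrome that reads as ACGTG on both strands, at -119 to -114, and a GCGTG at -84 to -80. The CA9 match lay close to the start, at -18 to -14 on the other strand. ANKRD37 held 3 matches to ACGTG, 2 of them from a palindrome of the same kind. LOX held 4, at -185, -116, -98 and -42. Among the promoters not printed, BNIP3 had 2 matches to ACGTG, both from a palindrome of that kind, and 4 to GCGTG. STC2 had 3 to GCGTG and CA12 had 1 to GCGTG. A match is a run of letters, and no binding was measured.

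**Figure D2:**
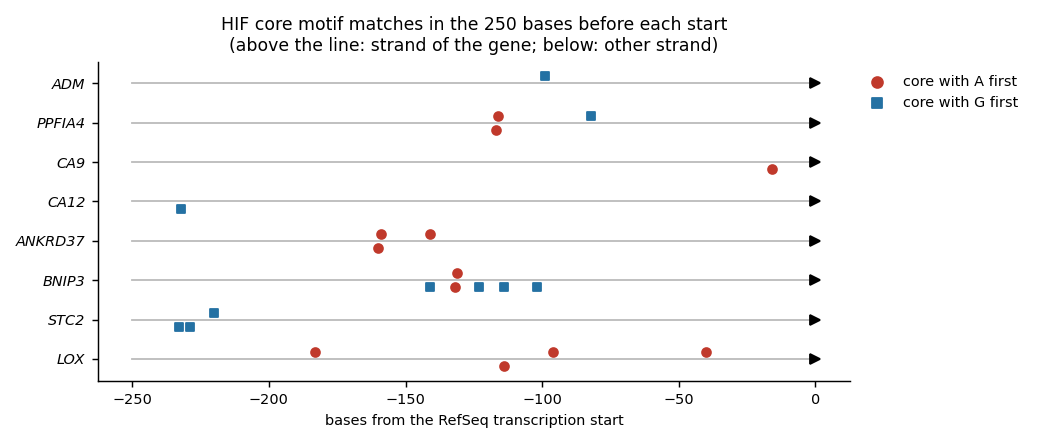
Positions of ACGTG and GCGTG in the 250 bases before the RefSeq start of 8 genes. The x axis is the distance from that start in bases, with 1 line per gene. Circles are ACGTG and squares GCGTG, above the line on the gene's strand and below it on the other; LOX holds 4 ACGTG and BNIP3 holds 4 GCGTG, and ADM, CA9 and CA12 hold 1 match each.

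ADM encodes adrenomedullin, a secreted peptide that widens blood vessels and acts through the receptor CALCRL with a RAMP partner (chr11:10304680-10307397, plus strand, GENCODE 29 on GRCh38, protein-coding). It was measured at 97.2, 89.4 and 96.4 CPM in the CoCl2-tolerant libraries, 11.6, 8.88 and 10.8 CPM in the low-glucose-tolerant libraries and 7.41, 6.26 and 6.70 CPM in the control libraries. The CoCl2-tolerant libraries were far above both other groups, the low-glucose-tolerant libraries lay slightly above control, and no groups overlapped. The log2 fold change was 3.80 ± 0.13 (SE) in CoCl2-tolerant against control, the 9th highest of the 17902 genes. ADM was picked for its size of change, so this rank restates the pick. The log2 fold change was 0.62 ± 0.13 in low-glucose-tolerant against control and 3.18 ± 0.13 between the tolerant lines.

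PPFIA4 encodes liprin-alpha-4, a scaffold protein of the liprin family, which organises protein complexes at cell contacts and synapses (chr1:203026498-203078740, plus strand). It was measured at 129.5, 96.9 and 96.3 CPM in the CoCl2-tolerant libraries, 0.442, 1.34 and 0.760 CPM in the low-glucose-tolerant libraries and 23.9, 24.2 and 24.2 CPM in the control libraries. The tolerant lines lay on opposite sides of the control, and no groups overlapped. Summed over 3 libraries, the raw counts were 8721 in CoCl2-tolerant, 73 in low-glucose-tolerant and 2320 in control cells. The log2 fold change was 2.16 ± 0.18 in CoCl2-tolerant against control and -4.82 ± 0.24 in low-glucose-tolerant against control. Between the tolerant lines it was 6.98 ± 0.25, the 7th highest of all tested genes. PPFIA4 was also picked for its size of change, so that rank restates the pick. The CoCl2-tolerant replicate 1 was the highest of its group, and the SD there was 19.0 CPM. In the control libraries the SD was 0.182 CPM.

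CA9 passed the low-count filter through the CoCl2-tolerant group alone and so had to differ there; its values are given apart, as a description. The other 7 genes, CA12, NDRG1, ANKRD37, BNIP3, STC2, LOX and HILPDA, passed the filter in each group. They were listed with earlier results of these data known, which their p-values do not allow for. All 7 were higher in CoCl2-tolerant than in control libraries (edgeR's quasi-likelihood test, Benjamini-Hochberg adjusted p under 0.05 over all genes), with log2 fold changes of 1.44 to 2.24. In that comparison 36.1% of all tested genes were called, 17.9% higher and 18.2% lower. The median log2 fold change of the 7 was 1.93, against 0.01 over all tested genes, and each lay above 1.02, the 95th percentile of all tested genes. The CoCl2-tolerant libraries lay above the control libraries without overlap for all 7, as they did for 28.3% of all tested genes. In low-glucose-tolerant against control, 4 of the 7 were higher, 1 was lower and 2 were not called, where 34.6% of all tested genes were called higher and 34.6% lower. The low-glucose-tolerant libraries lay wholly above the control libraries for 4 of the 7 genes and wholly below them for 1, as they did for 36.4% and 36.9% of all tested genes. In all, 69.2% of tested genes were called in that comparison, so the share of the 7 was close to the background. The median of the 7 was 0.38, beside -0.01 over all tested genes, and 0 of the 7 lay above 1.77, the 95th percentile there. Between the tolerant lines, 7 of the 7 were higher in CoCl2-tolerant cells, where 63.9% of all tested genes were called, 31.9% higher and 32.0% lower. All 7 were higher there without overlap, as were 31.7% of all tested genes, and the median of the 7 was 1.25 beside 0.01. Only 1 of the 7 lay above 2.27, the 95th percentile of all tested genes between the tolerant lines. DESeq2 also called all 7 higher in both comparisons with the CoCl2-tolerant line. The comparisons against control share the same 3 control libraries.

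**Figure D3:**
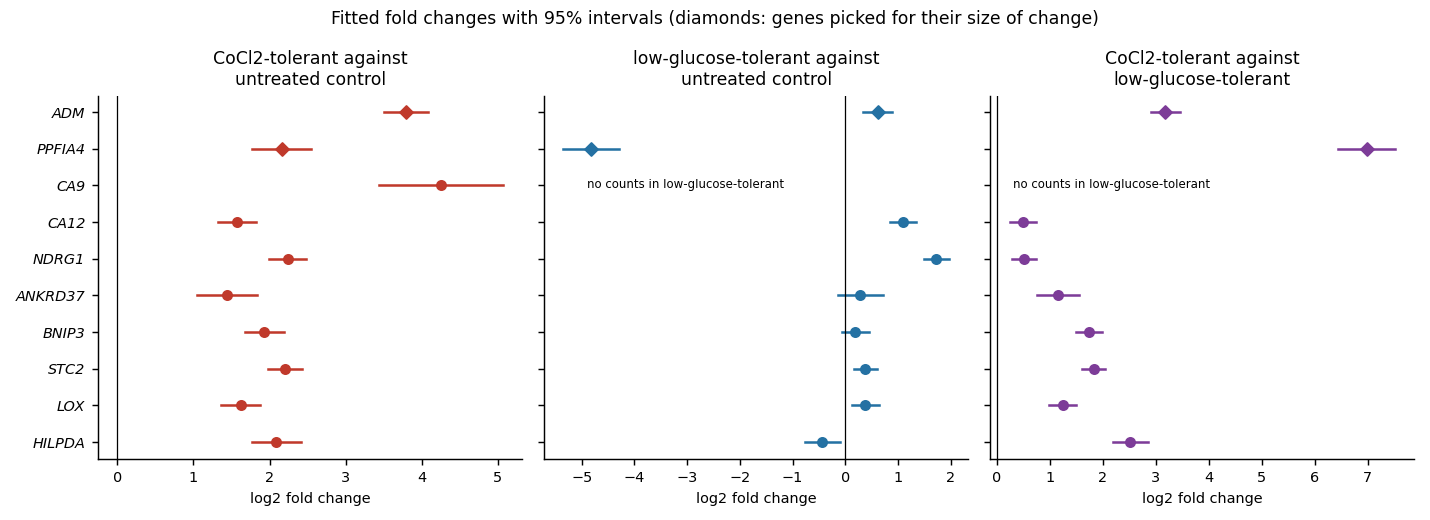
Log2 fold change of each gene for each tolerant line set against control and for CoCl2-tolerant set against low-glucose-tolerant cells, with 95% confidence intervals as bars and diamonds for ADM and PPFIA4. The CoCl2-tolerant values lie between 1.44 and 4.25, and the low-glucose-tolerant values lie on both sides of 0; CA9 has no fold where the low-glucose-tolerant libraries had no counts.

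**Figure D4:**
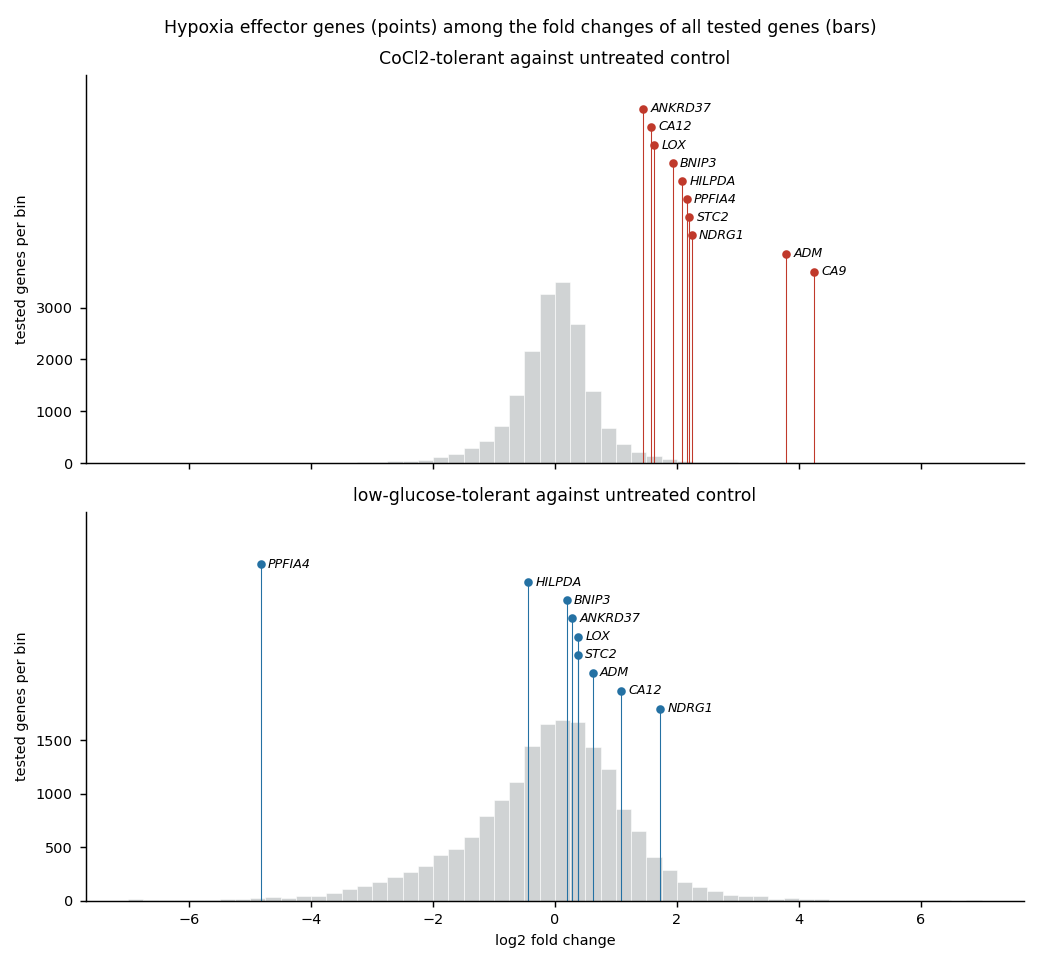
Number of tested genes per bin of log2 fold change (bars) for CoCl2-tolerant and low-glucose-tolerant against control, with the 10 genes as labelled points above. In the upper panel the 10 are drawn between 1.44 and 4.25; in the lower panel 7 of the 9 drawn lie between -0.43 and 1.09, NDRG1 is at 1.73 and PPFIA4 at -4.82.

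The carbonic anhydrases CA9 and CA12 are membrane enzymes that hydrate carbon dioxide outside the cell and so help to set the pH around tumour cells. CA9 (chr9:35673856-35681159, plus strand) had raw counts of 48, 93 and 61 in CoCl2-tolerant libraries, 0, 0 and 0 in low-glucose-tolerant libraries and 4, 3 and 5 in control libraries. It was therefore scarce in every group, and the mean was 2.45 ± 0.711 CPM in CoCl2-tolerant cells and 0.126 ± 0.0355 CPM in control cells. The ratio of summed counts, 202 against 12 and corrected for depth, was 19.8 with a 95% interval of 11.1 to 39.0 for counting error. The fitted log2 fold change was 4.25 ± 0.38, given with no test because of the filter. With a floor of 3 counts over the low-glucose-tolerant group, CA9 was at least 3.58-fold lower there than in control cells. It was at least 71.0-fold higher in CoCl2-tolerant than in low-glucose-tolerant cells. The 3.58-fold value takes the 12 control counts as exact and is given with no test. Of CA9's exon bases, 38.5% lie opposite ARHGEF39 on the other strand, and the strand setting of the counting is not given in the sources used here. ARHGEF39 was at 8.36 ± 0.0694 CPM in CoCl2-tolerant, 2.94 ± 0.362 CPM in low-glucose-tolerant and 11.9 ± 0.195 CPM in control libraries, so its mean was below control in both tolerant lines.

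CA12 (chr15:63321378-63382161, minus strand) was measured at 96.6, 98.1 and 83.1 CPM in the CoCl2-tolerant libraries, 59.9, 74.8 and 63.7 CPM in the low-glucose-tolerant libraries and 29.7, 32.4 and 31.3 CPM in the control libraries. Both tolerant lines were above control in every library, and the CoCl2-tolerant libraries were above the low-glucose-tolerant ones. It rose by 1.57 ± 0.12 on the log2 scale in CoCl2-tolerant cells (adjusted p = 2.69e-07) and by 1.09 ± 0.12 in low-glucose-tolerant cells (adjusted p = 1.35e-06). The difference between the tolerant lines was 0.49 ± 0.11 (adjusted p = 0.00194). Among 11 tested genes of the other carbonic anhydrases and of acid export, 2 were higher and 3 were lower in CoCl2-tolerant cells. The other 6 were not called, beside 17.9% higher and 18.2% lower among all tested genes. In low-glucose-tolerant cells 7 of the 11 were higher and 2 lower, beside 34.6% higher and 34.6% lower among all tested genes. CA13, a cytosolic carbonic anhydrase, averaged 3.60 ± 0.830 CPM in CoCl2-tolerant, 9.82 ± 1.33 CPM in low-glucose-tolerant and 4.15 ± 0.458 CPM in control libraries, a rise in the low-glucose-tolerant line (adjusted p = 1.89e-05). The bicarbonate carriers SLC4A7 and SLC4A4 fell in both lines, with SLC4A7 at 15.5 ± 3.89 CPM in CoCl2-tolerant, 16.2 ± 4.75 CPM in low-glucose-tolerant and 33.8 ± 1.09 CPM in control libraries. Its log2 fold change was -1.12 ± 0.20 in CoCl2-tolerant (adjusted p = 7.97e-04) and -1.06 ± 0.20 in low-glucose-tolerant cells (adjusted p = 3.24e-04). SLC4A4 changed by -0.49 ± 0.15 in CoCl2-tolerant (adjusted p = 0.0187) and -1.06 ± 0.15 in low-glucose-tolerant cells (adjusted p = 2.09e-05).

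STC2 encodes stanniocalcin-2, a secreted glycoprotein that binds and blocks the protease PAPPA, which frees insulin-like growth factors from their binding proteins (chr5:173314713-173329503, minus strand). STC2 was measured at 910.0, 789 and 814 CPM in the CoCl2-tolerant libraries, 219, 243 and 247 CPM in the low-glucose-tolerant libraries and 180.4, 185 and 180.0 CPM in the control libraries. It had the highest level per length of the 10 genes in CoCl2-tolerant cells, and the low-glucose-tolerant libraries lay narrowly above control without overlap. The log2 fold change was 2.20 ± 0.11 in CoCl2-tolerant against control (adjusted p = 5.15e-09) and 0.38 ± 0.10 in low-glucose-tolerant against control (adjusted p = 0.00406). The tolerant lines differed by 1.83 ± 0.10 (adjusted p = 3.02e-09). Its paralogue STC1 rose in CoCl2-tolerant cells by 0.64 ± 0.13 (adjusted p = 0.00193) but was lower in low-glucose-tolerant cells, at -1.63 ± 0.14 (adjusted p = 1.33e-07). Of 5 tested genes of the stanniocalcin and pappalysin group, 2 were higher, 2 lower and 1 not called in CoCl2-tolerant cells. In low-glucose-tolerant cells 1 was higher, 3 were lower and 1 was not called. Among all tested genes, 17.9% were higher and 18.2% lower in CoCl2-tolerant cells, and 34.6% higher and 34.6% lower in low-glucose-tolerant cells. PAPPA fell in both lines, by 0.82 ± 0.19 on the log2 scale in CoCl2-tolerant cells (adjusted p = 0.00407) and by 1.22 ± 0.19 in low-glucose-tolerant cells (adjusted p = 5.51e-05). An antisense gene overlaps 21.2% of PAPPA's exon bases. PAPPA2, a related protease, averaged 3.06 ± 0.279 CPM in CoCl2-tolerant, 16.0 ± 5.83 CPM in low-glucose-tolerant and 1.73 ± 0.223 CPM in control libraries and was higher in both tolerant lines (adjusted p = 0.0217 in CoCl2-tolerant and 2.62e-08 in low-glucose-tolerant cells). IGFBP5, a substrate of the pappalysins, averaged 4.01 ± 0.235 CPM in CoCl2-tolerant, 0.804 ± 0.670 CPM in low-glucose-tolerant and 41.2 ± 0.488 CPM in control libraries, a fall in both lines (adjusted p = 2.76e-07 in CoCl2-tolerant and 1.17e-09 in low-glucose-tolerant cells).

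LOX encodes lysyl oxidase, a secreted amine oxidase that starts the cross-linking of collagen and elastin (chr5:122063195-122078360, minus strand). LOX levels were 457, 568 and 551 CPM in the CoCl2-tolerant libraries, 246, 225 and 194 CPM in the low-glucose-tolerant libraries and 176, 171 and 165 CPM in the control libraries. The CoCl2-tolerant libraries were the highest, and the low-glucose-tolerant libraries lay above control without overlap. LOX rose by 1.62 ± 0.12 in CoCl2-tolerant cells (adjusted p = 2.53e-07). In low-glucose-tolerant cells it rose by 0.38 ± 0.12 (adjusted p = 0.0108), and with library totals in place of TMM scaling that value was 0.28 (adjusted p = 0.0674), which ends the call. That scaling moved the median of all genes in the comparison by -0.10. The adjusted p of that comparison ran from 0.00276 to 0.0674 over the alternatives. Set against low-glucose-tolerant cells, the CoCl2-tolerant value was 1.25 ± 0.12 (adjusted p = 5.61e-07). In CoCl2-tolerant against control, 17.9% of all tested genes were higher and 18.2% lower. Of 6 tested genes of the family and its processing, 1 was higher there, 3 were lower and 2 were not called. LOXL2, a paralogue at 1193 ± 103 CPM in CoCl2-tolerant, 279 ± 15.2 CPM in low-glucose-tolerant and 981 ± 5.82 CPM in control libraries, was that 1 gene, with 0.28 ± 0.10 (adjusted p = 0.0426). In low-glucose-tolerant cells 1 of the 6 was higher and 4 were lower, beside 34.6% higher and 34.6% lower among all tested genes. LOXL2 was among the 4 lower genes, at -1.82 ± 0.10 (adjusted p = 2.41e-09). LOXL4 was lower in both lines, at -1.03 ± 0.12 in CoCl2-tolerant (adjusted p = 1.54e-05) and -1.27 ± 0.12 in low-glucose-tolerant cells (adjusted p = 3.51e-07). BMP1, the protease that activates lysyl oxidase, was at -1.33 ± 0.13 in low-glucose-tolerant cells (adjusted p = 4.04e-07).

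BNIP3 encodes an outer mitochondrial membrane protein that recruits the autophagy machinery to remove mitochondria (chr10:131966455-131982013, minus strand). BNIP3 levels were 362, 407 and 418 CPM in the CoCl2-tolerant libraries, 134, 101 and 121 CPM in the low-glucose-tolerant libraries and 104, 103 and 104 CPM in the control libraries. The CoCl2-tolerant libraries stood clear of the rest, while of the low-glucose-tolerant libraries replicate 2 lay just below the control libraries and the others above them. BNIP3 rose by 1.93 ± 0.12 in CoCl2-tolerant cells (adjusted p = 4.58e-08). The value in low-glucose-tolerant cells was 0.19 ± 0.12 with a 95% interval of -0.05 to 0.44 (adjusted p = 0.151). Without low-glucose-tolerant replicate 2 it was 0.30 (adjusted p = 0.00978), and over all alternatives the adjusted p ran from 0.00978 to 0.507. Between the tolerant lines BNIP3 differed by 1.74 ± 0.12 (adjusted p = 1.68e-08). A pseudogene, BNIP3P1, shares 5.63% of the 75-base stretches of BNIP3's transcripts. BNIP3L, the paralogue with the same role, averaged 289 ± 37.1 CPM in CoCl2-tolerant, 105 ± 18.01 CPM in low-glucose-tolerant and 102 ± 2.42 CPM in control libraries, a rise in the CoCl2-tolerant line (adjusted p = 1.34e-06). In the low-glucose-tolerant line its log2 fold change was 0.05 ± 0.13 (adjusted p = 0.77). The 9 tested mitophagy genes beside BNIP3 divided into 3 higher, 2 lower and 4 not called in CoCl2-tolerant cells. In low-glucose-tolerant cells 5 were higher, 0 lower and 4 not called, and 0 were lower by DESeq2 or at an unadjusted p under 0.05. All tested genes divided into 17.9% higher and 18.2% lower in CoCl2-tolerant cells, and 34.6% higher and 34.6% lower in low-glucose-tolerant cells. PHB2, an inner-membrane mitophagy receptor, averaged 272 ± 5.52 CPM in CoCl2-tolerant, 813 ± 92.2 CPM in low-glucose-tolerant and 241 ± 9.72 CPM in control libraries, a rise in the low-glucose-tolerant line (adjusted p = 4.57e-09).

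HILPDA encodes a small lipid droplet protein that inhibits the triglyceride lipase PNPLA2 (chr7:128455849-128458418, plus strand). Levels of HILPDA were 33.8, 27.9 and 26.6 CPM in the CoCl2-tolerant libraries, 5.95, 4.11 and 5.32 CPM in the low-glucose-tolerant libraries and 6.95, 6.35 and 7.49 CPM in the control libraries. The order of the lines differed from that of most of the group, since the low-glucose-tolerant libraries were all below the control libraries. HILPDA rose by 2.09 ± 0.15 in CoCl2-tolerant cells (adjusted p = 1.88e-07). In low-glucose-tolerant cells the value was -0.43 ± 0.16 (adjusted p = 0.0238), and that call was lost without low-glucose-tolerant replicate 2 (-0.29, adjusted p = 0.0955), without control replicate 1 (-0.43, adjusted p = 0.0599) and without control replicate 3 (-0.37, adjusted p = 0.0918). The adjusted p ran from 0.00651 to 0.0955 over the alternatives. HILPDA differed between the tolerant lines by 2.52 ± 0.16 (adjusted p = 6.36e-09). Other transcripts overlap 13.2% of its exon bases on the same strand, so part of its reads could have been counted elsewhere. Its target PNPLA2 averaged 111 ± 4.07 CPM in CoCl2-tolerant, 107 ± 9.99 CPM in low-glucose-tolerant and 123 ± 7.63 CPM in control libraries and was called in neither line (adjusted p = 0.252 in CoCl2-tolerant and 0.0836 in low-glucose-tolerant cells). PLIN2, a lipid droplet coat protein, rose by 1.66 ± 0.11 in CoCl2-tolerant cells (adjusted p = 1.26e-07) and by 1.29 ± 0.11 in low-glucose-tolerant cells (adjusted p = 1.70e-07). Of 9 tested lipid droplet genes, PLIN2 and ABHD5 were higher and 7 were not called in CoCl2-tolerant cells. There 17.9% of all tested genes were higher and 18.2% lower. In low-glucose-tolerant cells 2 of the 9 were higher, 5 lower and 2 not called, beside 34.6% higher and 34.6% lower among all tested genes. ABHD5, the activator of PNPLA2, was among the 5 lower genes, at -0.87 ± 0.11 (adjusted p = 7.06e-06).

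NDRG1 encodes a cytoplasmic protein induced by hypoxia, iron loss and other stress (chr8:133237171-133302022, minus strand). The libraries gave NDRG1 levels of 575, 542 and 506 CPM in the CoCl2-tolerant libraries, 338, 423 and 377 CPM in the low-glucose-tolerant libraries and 116, 109 and 119 CPM in the control libraries. Both tolerant lines were well above control, and the CoCl2-tolerant libraries lay above the low-glucose-tolerant ones. NDRG1 rose by 2.24 ± 0.11 in CoCl2-tolerant cells (adjusted p = 9.05e-09) and by 1.73 ± 0.11 in low-glucose-tolerant cells (adjusted p = 7.45e-09). The tolerant lines differed by 0.51 ± 0.11 (adjusted p = 8.72e-04). Of the paralogues NDRG2, NDRG3 and NDRG4, 0 of 3 were called in CoCl2-tolerant cells by edgeR's quasi-likelihood test or by DESeq2. At an unadjusted p under 0.05 there was 1. By edgeR 36.1% of all tested genes were called in that comparison. NDRG2 fell in low-glucose-tolerant cells, at 1.69 ± 0.388 CPM against 8.32 ± 0.341 CPM in control cells (log2 -2.30 ± 0.19, adjusted p = 1.11e-07).

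ANKRD37 encodes a small ankyrin-repeat protein (chr4:185396021-185400628, plus strand). ANKRD37 was found at 6.10, 4.80 and 4.52 CPM in the CoCl2-tolerant libraries, 2.52, 1.88 and 2.50 CPM in the low-glucose-tolerant libraries and 2.11, 1.76 and 1.78 CPM in the control libraries. The CoCl2-tolerant libraries were above all others, and the low-glucose-tolerant and control ranges overlapped. ANKRD37 rose by 1.44 ± 0.18 in CoCl2-tolerant cells (adjusted p = 4.16e-05). The value in low-glucose-tolerant cells was 0.29 ± 0.20 with a 95% interval of -0.13 to 0.71 (adjusted p = 0.204), and between the tolerant lines it was 1.16 ± 0.18 (adjusted p = 7.41e-05). UFSP2 lies opposite 35.2% of its exon bases and averaged 21.4 ± 0.444 CPM in CoCl2-tolerant, 21.2 ± 3.60 CPM in low-glucose-tolerant and 17.1 ± 0.0987 CPM in control libraries.

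The partners of ADM were measured as well. PAM, the enzyme that amidates adrenomedullin's tail, averaged 740.4 ± 16.3 CPM in CoCl2-tolerant, 217 ± 19.5 CPM in low-glucose-tolerant and 542 ± 2.96 CPM in control libraries. It was higher in CoCl2-tolerant cells, by 0.45 ± 0.10 (adjusted p = 0.00303), and lower in low-glucose-tolerant cells, at -1.32 ± 0.10 (adjusted p = 4.30e-08). CALCRL averaged 3.20 ± 0.697 CPM in CoCl2-tolerant, 4.37 ± 0.521 CPM in low-glucose-tolerant and 4.81 ± 0.542 CPM in control libraries, a fall of 0.58 ± 0.18 on the log2 scale in CoCl2-tolerant cells (adjusted p = 0.0214). RAMP2 was under 1 CPM in each group mean, and RAMP1 did not pass the filter. ADM2, a related peptide hormone, averaged 30.6 ± 3.08 CPM in CoCl2-tolerant, 81.3 ± 6.67 CPM in low-glucose-tolerant and 15.0 ± 1.199 CPM in control libraries. Its rise was 1.03 ± 0.12 in CoCl2-tolerant (adjusted p = 1.74e-05) and 2.44 ± 0.12 in low-glucose-tolerant cells (adjusted p = 6.35e-10), so the order of the tolerant lines was the reverse of that of ADM. Of the 6 tested genes of this group, 2 were higher, 1 lower and 3 not called in CoCl2-tolerant cells. In low-glucose-tolerant cells 2 were higher, 2 lower and 2 not called. The shares of all tested genes were 17.9% higher and 18.2% lower in CoCl2-tolerant, and 34.6% higher and 34.6% lower in low-glucose-tolerant cells.

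Of the 4 other liprins tested, 0 were called in CoCl2-tolerant cells by edgeR's quasi-likelihood test or by DESeq2. At an unadjusted p under 0.05 there was 1, and edgeR called 36.1% of all tested genes in that comparison. In low-glucose-tolerant cells 2 of the 4 were higher, 1 lower and 1 not called, beside 34.6% higher and 34.6% lower among all tested genes. PPFIA3, a close paralogue, averaged 6.16 ± 1.30 CPM in CoCl2-tolerant, 3.20 ± 0.561 CPM in low-glucose-tolerant and 7.59 ± 0.286 CPM in control libraries, with a fall in low-glucose-tolerant cells (log2 -1.25 ± 0.17, adjusted p = 1.79e-05). PPFIBP1, a beta liprin, averaged 87.7 ± 13.0 CPM in CoCl2-tolerant, 179 ± 37.2 CPM in low-glucose-tolerant and 97.1 ± 2.13 CPM in control libraries (log2 0.88 ± 0.15 in low-glucose-tolerant cells, adjusted p = 9.12e-05).

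**Figure D5:**
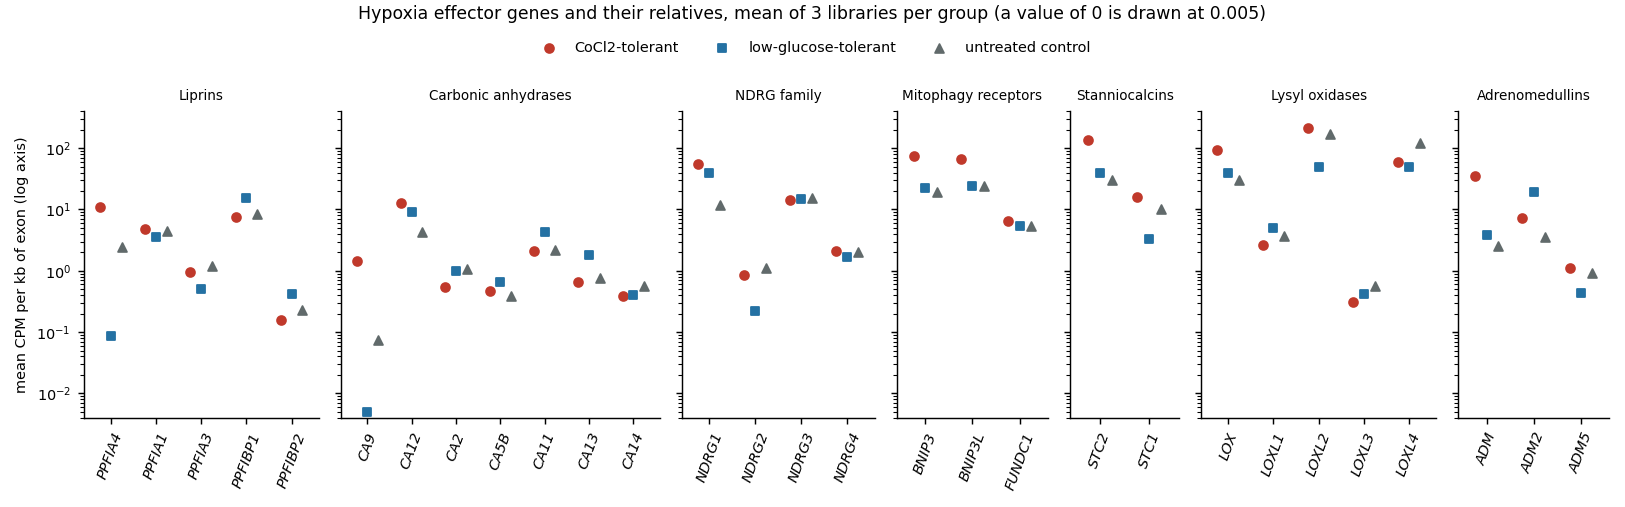
Mean level of 3 libraries per group, in CPM per kilobase of exon on a log axis, for the hypoxia effector genes and genes of the same families, 1 panel per family. Circles are CoCl2-tolerant, squares low-glucose-tolerant and triangles untreated control libraries, and a level of 0 (CA9, low-glucose-tolerant) is drawn at 0.005. PPFIA4 stands at 11.1 in CoCl2-tolerant, 0.0872 in low-glucose-tolerant and 2.48 in control libraries, the widest spread among the liprins drawn. PPFIA4 was picked for its size of change.

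Likeness of pattern was measured as the root mean square difference of centred log2(CPM + 0.5) over the 9 libraries, among 11043 protein-coding genes with at least 5 CPM in a group. CA9 was left out, since the added 0.5 CPM outweighs its level in 2 groups. It also narrows the fall of PPFIA4, which lies near that level in low-glucose-tolerant libraries, so the distances of PPFIA4 depend on it. The same holds for ARRDC4 and FBXW10B, at 0.521 and 0.948 CPM in that group. TXNIP, an arrestin-domain protein that binds thioredoxin, was nearest to PPFIA4 at 0.33. It averaged 299 ± 11.2 CPM in CoCl2-tolerant, 3.68 ± 0.346 CPM in low-glucose-tolerant and 63.8 ± 1.57 CPM in control libraries. ARRDC4, an arrestin-domain relative of TXNIP, was the third nearest at 0.83 and averaged 27.5 ± 2.88 CPM in CoCl2-tolerant, 0.521 ± 0.0540 CPM in low-glucose-tolerant and 5.54 ± 0.393 CPM in control libraries. GOLGA8A stood between them at 0.71, but it has near-identical copies, and its reads may be split among them. For ADM the nearest gene was SERPINE2, a secreted protease inhibitor, at 0.57, followed by FBXW10B at 0.68 and STC2 at 0.68. SERPINE2 averaged 143 ± 5.46 CPM in CoCl2-tolerant, 39.8 ± 2.04 CPM in low-glucose-tolerant and 22.1 ± 0.611 CPM in control libraries.

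The other 7 genes had nearer neighbours. The measure grows with the size of change, for which ADM and PPFIA4 were picked, so their larger distances partly restate the pick. CA12 was closest to MGLL, monoglyceride lipase, at 0.06, and LOX to GBE1, the glycogen branching enzyme, at 0.11. NDRG1 was closest to PANX2 at 0.17, ANKRD37 to CFAP410 at 0.12, BNIP3 to SPAG4 at 0.19 and HILPDA to FAM162A at 0.21. STC2 was closest to BNIP3 at 0.20, the nearest pair among the 9 genes compared, with BNIP3 and LOX next at 0.24. The farthest pair was PPFIA4 and NDRG1 at 2.79.

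Within the low-glucose-tolerant group, the library that stood apart did not sit on 1 side. Replicate 2 was the highest of the group for PPFIA4, CA12 and NDRG1 and the lowest for ADM, ANKRD37, BNIP3 and HILPDA, of 9 genes with counts. In the CoCl2-tolerant group, replicate 1 was the highest for PPFIA4, NDRG1, ANKRD37, STC2, HILPDA and ADM, and the lowest for CA9, BNIP3 and LOX.

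Other targets of HIF were counted from lists. The lists of this report share some genes, among them BNIP3L, STC1, EGLN1, EGLN3 and SLC16A3, whose calls are therefore counted more than once. Of 31 tested targets outside glycolysis beside the 10 genes, 24 were higher, 0 lower and 7 not called in CoCl2-tolerant against control by edgeR, where 17.9% of all tested genes were higher and 18.2% lower. Their median log2 fold change was 0.98, against 0.01 over all tested genes. None was lower there by DESeq2 or at an unadjusted p under 0.05 either. In low-glucose-tolerant against control, 6 were higher, 15 lower and 10 not called, where 34.6% of all tested genes were higher and 34.6% lower. Their median was -0.30, against -0.01 over all tested genes. ANGPTL4, a secreted inhibitor of lipoprotein lipase, averaged 104 ± 7.73 CPM in CoCl2-tolerant, 168 ± 27.8 CPM in low-glucose-tolerant and 19.1 ± 0.0708 CPM in control libraries, a rise in both lines (adjusted p = 1.50e-08 in CoCl2-tolerant and 1.49e-10 in low-glucose-tolerant cells). NT5E, the ectonucleotidase CD73, averaged 93.6 ± 6.12 CPM in CoCl2-tolerant, 279 ± 20.0 CPM in low-glucose-tolerant and 34.2 ± 1.62 CPM in control libraries, also a rise in both (adjusted p = 1.88e-07 in CoCl2-tolerant and 3.54e-11 in low-glucose-tolerant cells). RORA, a nuclear receptor, was called in CoCl2-tolerant cells at 2.82 ± 0.25 (adjusted p = 1.27e-06), where its mean was 3.75 CPM against 0.529 CPM in control cells. DDIT4, an inhibitor of mTORC1 signalling, was higher in both lines, at 2.08 ± 0.16 in CoCl2-tolerant (adjusted p = 2.81e-07) and 2.58 ± 0.16 in low-glucose-tolerant cells (adjusted p = 4.58e-09), and an antisense gene overlaps 41.2% of its exon bases. Between the tolerant lines 27 of the 31 were higher in CoCl2-tolerant cells, where 31.9% of all tested genes were higher and 32.0% lower. The 3 that were lower were ANGPTL4, DDIT4 and NT5E.

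Of 21 glycolytic targets, 18 were higher, 0 lower and 3 not called in CoCl2-tolerant cells by edgeR, beside 17.9% higher and 18.2% lower among all tested genes. The median of the 21 was 0.90, and 0 were lower by DESeq2 or at an unadjusted p under 0.05. In low-glucose-tolerant cells 5 of the 21 were higher, 14 lower and 2 not called, with a median of -0.44. There 34.6% of all tested genes were higher and 34.6% lower. ALDOA, called higher in both lines, averaged 21.7 CPM in CoCl2-tolerant, 20.3 CPM in low-glucose-tolerant and 10.1 CPM in control libraries. Another gene overlaps 42.3% of its exon bases on the same strand, so an unknown share of its reads could have been counted elsewhere or not at all. Its control mean stood beside 5464 CPM for GAPDH and 2852 CPM for ENO1. How many reads were lost was not tested, so its level and its calls may not stand for the whole gene. ENO2, a neuronal-type enolase, averaged 478 ± 77.2 CPM in CoCl2-tolerant, 58.4 ± 4.98 CPM in low-glucose-tolerant and 119 ± 1.64 CPM in control libraries, up in CoCl2-tolerant cells (adjusted p = 4.90e-08) and down in low-glucose-tolerant cells (adjusted p = 3.66e-06). PFKFB4, which makes the activator of phosphofructokinase, did the same, at 1.65 ± 0.11 in CoCl2-tolerant (adjusted p = 1.32e-07) and -1.26 ± 0.12 in low-glucose-tolerant cells (adjusted p = 4.07e-07). SLC2A3, the glucose transporter GLUT3, rose in both lines (adjusted p = 5.32e-05 in CoCl2-tolerant and 4.54e-09 in low-glucose-tolerant cells). The CoCl2-tolerant level was the lower one, by -1.01 ± 0.11 (adjusted p = 2.61e-06). ALDOC, an aldolase, was called in low-glucose-tolerant cells, at -3.19 ± 0.38 (adjusted p = 4.19e-06), and averaged 2.17 ± 0.575 CPM in CoCl2-tolerant, 0.175 ± 0.0957 CPM in low-glucose-tolerant and 1.63 ± 0.287 CPM in control libraries.

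Of 9 tested HIF subunits and oxygen sensors, 2 were higher, 3 lower and 4 not called in CoCl2-tolerant cells. In low-glucose-tolerant cells 3 were higher, 4 lower and 2 not called. Among all tested genes, 17.9% were higher and 18.2% lower in CoCl2-tolerant cells, and 34.6% higher and 34.6% lower in low-glucose-tolerant cells. HIF1A, the alpha subunit HIF-1α, averaged 362 ± 69.9 CPM in CoCl2-tolerant, 230.3 ± 40.6 CPM in low-glucose-tolerant and 712 ± 52.1 CPM in control libraries, a fall in both lines (adjusted p = 2.36e-04 in CoCl2-tolerant and 4.17e-07 in low-glucose-tolerant cells). EPAS1, the alpha subunit HIF-2α, was higher in CoCl2-tolerant cells at 0.46 ± 0.13 (adjusted p = 0.017) and was at -0.15 ± 0.13 in low-glucose-tolerant cells (adjusted p = 0.317). EGLN3, an oxygen-sensing hydroxylase and a HIF target, was at 0.15 ± 0.27 in CoCl2-tolerant cells (adjusted p = 0.684) and lower in low-glucose-tolerant cells at -2.20 ± 0.34 (adjusted p = 4.22e-05). VHL averaged 25.9 ± 2.11 CPM in CoCl2-tolerant, 44.1 ± 2.27 CPM in low-glucose-tolerant and 25.97 ± 1.51 CPM in control libraries, a rise in the low-glucose-tolerant line (adjusted p = 2.26e-05). HIF proteins were not measured.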

How the data were processed

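RNA of 9 libraries of HCT-15 cells and derived lines was sequenced. The authors deposited raw read counts per gene and library, made with featureCounts on GRCh38 per the submitters' processing notes, which also name DESeq2. Which aligner, annotation and strand option were used is not given in the sources used here. Symbols were found for 35938 of 36018 genes, and 76 more, with positions and exon overlaps, came from GENCODE 29. Genes passing edgeR's filterByExpr (17902) were fitted with edgeR 4.0.16 in R 4.3.3, with 1 mean per group over all 9 libraries, TMM scaling and the quasi-likelihood F test. P-values were Benjamini-Hochberg adjusted over all tested genes per comparison and called under 0.05. The common biological coefficient of variation was 12.6%. SE were derived from the fold change and the F statistic. Depth was 25178615 to 32674687 counts per library, and intervals and floors cover counting error only.

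The 10 genes, the lists and the tests were chosen with earlier results of these data known. Named genes are the 10, the nearest genes by pattern, and up to 4 genes per list with the largest called change against control at 1 CPM or more in the higher group. Partners, paralogues and machinery genes of the short lists could be named whatever their values. Some genes, such as ALDOA and PNPLA2, were named outside these rules. Not every gene chosen this way is reported here. A brefeldin A-tolerant line, RAMP3, CA8 and CA10 were not analysed here. The motif search used the 250 bases before each RefSeq start, which differs from the GENCODE start for some genes. The fit was tested on simulated counts. The results were recomputed with the Wald test of DESeq2 1.42.0, with DESeq2's size factors, with library totals, without a filter, with at least 5 CPM in 3 libraries, from only the 2 groups compared, with a replicate block and without each library in turn. No pair of libraries within a group agreed within counting error. Residuals of same-numbered libraries correlated at -0.478 to 0.245, which gave no ground to treat the numbers as pairs. Python 3.11.15 was used for tables and, with matplotlib 3.10.9, for figures.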

Additional observations from a re-analysis of the deposited data

How the results depend on the processing

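No value of the 10 genes changed sign under any of the 16 alternatives that could give one. Under the filter of at least 5 CPM in 3 libraries, CA9 and ANKRD37 gave no value, so 6 of the 8 genes beside ADM and PPFIA4 were called in CoCl2-tolerant against control and in CoCl2-tolerant against low-glucose-tolerant cells; the other alternatives gave 8, a count that holds CA9, which had to differ. In low-glucose-tolerant against control 5 to 6 were called, a count that can hold CA9. The calls that moved were those of LOX, HILPDA and BNIP3 given above. For PPFIA4, which has no test, the log2 fold change in low-glucose-tolerant against control was -4.82, and -5.32 without low-glucose-tolerant replicate 2. Glycolytic targets called lower in CoCl2-tolerant cells numbered 0 to 1 when a library was left out, with the 1 arising without CoCl2-tolerant replicate 1. Those called higher in low-glucose-tolerant cells numbered 5, against 3 with library totals, 3 under the 5 CPM filter, and 3 to 5 when a library was left out, with 3 without control replicate 1 and 3 without control replicate 3. The cause was not tested. Genes called over the whole table numbered 6459 (4463 to 8552 over the alternatives, 4463 to 7965 with a library left out) in CoCl2-tolerant against control, 12394 (8466 to 13663) in low-glucose-tolerant against control and 11440 (7740 to 12421) between the tolerant lines. With a replicate block the counts were 6091, 12118 and 11135, and 8, 6 and 8 of the 8 were called, so the block moved no count of these by over 1.5 times. CA9 and ANKRD37 are limited by depth, with under 10 CPM in every library.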
